A study of Mus musculus with 48 samples.

Results

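Regulatory T cells (Tregs) of mice whose MHC class II was blocked were compared 4 days after an injection of the IL-2 mutein H16R or of PBS, with 4 mice in each group. The rule for the comparison took the Treg samples labelled with the MHC II block and with either H16R or PBS, which gave 8 of the 48 libraries in the study and 8 of its 32 Treg libraries. All mice were female C57BL/6 animals of 8 to 12 weeks, with no engineered allele given for them. Each received 2 intraperitoneal doses of 500 µg of the MHC II blocking antibody M5/114, on day -1 and day 0. On day 0 the treated mice also received 1 subcutaneous dose of 25 µg of H16R, a human IL-2 in which a histidine is replaced by arginine, fused to a human antibody Fc without effector function, and the control mice received PBS. The spleens were taken on day 4, and the Tregs were the CD25-positive fraction held back by magnetic beads, so that they were chosen by a chain of the IL-2 receptor and not by Foxp3. Each mouse was 1 sample, and nothing was pooled. The 40 other libraries were the same 2 treatments with an isotype antibody, wild-type (WT) IL-2 and a second mutein, 3x, with either antibody, and conventional T cells (Tcons).

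IL-2 binds a receptor of 3 chains, and its signal runs through the kinases Jak1 and Jak3 to the transcription factor STAT5. Tregs make the high-affinity chain CD25 at high levels, make little IL-2 themselves, and depend on it for survival and for expression of Foxp3, the factor that defines them. A second signal comes from the T cell receptor (TCR), which reads peptides on MHC class II. The antibody used here blocks MHC class II, so the comparison asks which genes H16R moves in Tregs when that second signal is reduced. Signals from both receptors are known to drive central Tregs, which recirculate through lymphoid organs, toward effector Tregs, which carry suppressive and tissue-homing molecules.

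The 8 libraries held 26.73 to 40.41 M expected counts, against 18.28 to 51.24 M over all 32 Treg libraries. On the scale of CPM, counts scaled to a common library total, Foxp3 was at 790.3 to 1143 CPM in these 8 libraries and at 69.5 to 98.9 CPM in the 4 Tcon libraries of the same treatments, and Cd40lg, a gene of conventional helper cells, was at 20.9 to 33.7 against 85.6 to 93.6 CPM. The other levels below are CPM after scaling by trimmed mean of M-values (TMM), except marker sums in the comparisons with other groups, which are CPM by library total. They compare groups within a gene and not one gene with another, because they are not divided by gene length. Summed over fixed marker lists, B cell genes stood at 69.9 to 159 CPM with PBS and 50.9 to 93.0 CPM with H16R, with 0 of 10 tested markers higher and 1 lower. Myeloid and dendritic cell genes stood at 23.2 to 41.4 against 44.9 to 82.0 CPM, with 4 of 12 higher and 2 lower. Genes of NK and CD8 T cells stood at 59.2 to 68.9 against 72.1 to 95.4 CPM, with 7 of 9 higher and 2 lower. Plasma cell genes stood at 596 to 1886 against 551 to 1222 CPM, MHC class II genes at 376 to 793 against 412 to 606 CPM, and Tcon genes at 339 to 358 against 347 to 374 CPM. Neutrophil genes reached at most 14.2 CPM and erythroid and platelet genes at most 14.9 CPM in any of the 8 libraries. Genes of the handling response, which are known to be induced while tissue is dissociated, stood at 13502 to 14718 CPM with PBS and 10693 to 11095 CPM with H16R, with 8 of 11 lower and 1 higher. No marker in these lists was at 0 in all 8 libraries. No 2 libraries of a group agreed within sampling noise.

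H16R changed the level of most genes. With edgeR's quasi-likelihood test at a Benjamini-Hochberg adjusted p under 0.1, which is what "rose" and "fell" mean throughout, 8242 of 12390 protein-coding genes (66.5%) passed, 4051 of them (32.7%) higher and 4191 (33.8%) lower with H16R. Without TMM the split was 3441 higher and 4955 lower, and with limma on FPKM 3424 and 4842. Most of the changes were small, with a median absolute log2 fold change of 0.38 among the called genes and a median of -0.02 over all genes tested. A change of at least 1 on the log2 scale was reached by 476 genes that rose (3.84%) and 485 that fell (3.91%). The first principal component of the 8 libraries held 68.9% of the variance and separated the groups, with the PBS libraries between -35.2 and -30.8 and the H16R libraries between 26.2 and 37.7. In bulk samples a change in the share of cells that express a gene and a change in RNA per cell cannot be told apart, and this holds for each result below. The 32.7% and 33.8% are the shares of all genes beside which counts of list members below are to be read. Where groups are said not to overlap, the share of all genes without overlap was not computed. Such a gap describes the gene named and has no baseline.

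**Figure D1:**
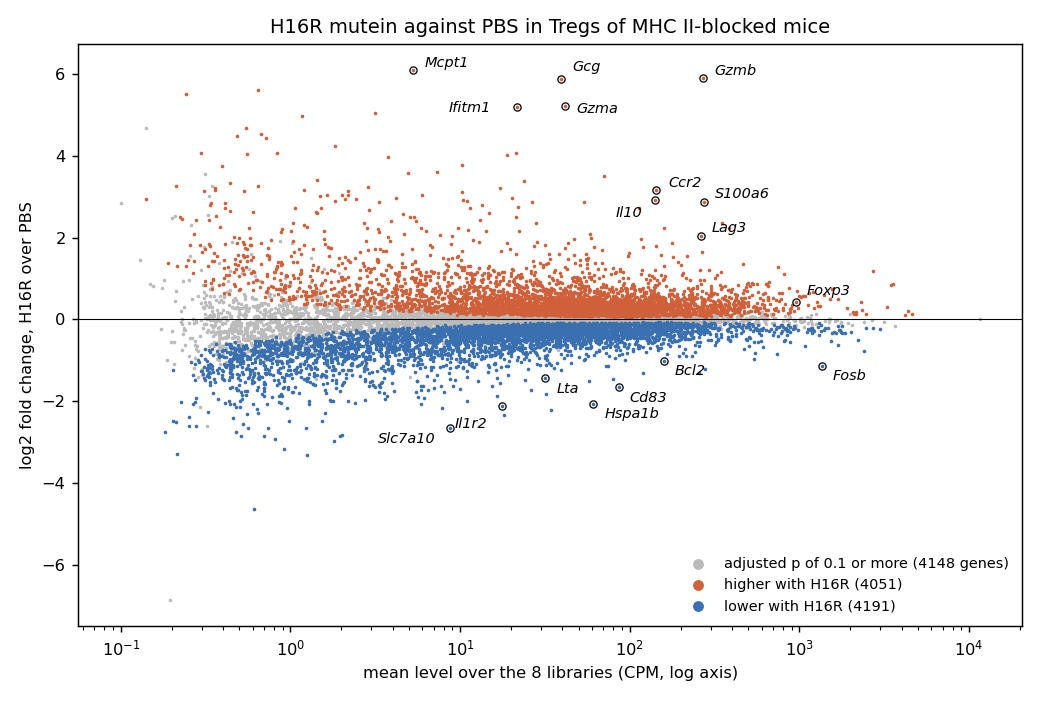
Each point is 1 of the 12390 genes tested, with its mean level over the 8 libraries (CPM, log axis) against its log2 fold change, H16R over PBS. Orange points are the 4051 genes that rose, blue points the 4191 that fell, and grey points did not pass; Gzmb, at 5.90, and Gcg, at 5.89, lie far above the bulk of genes.

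All 3 chains of the IL-2 receptor rose. Il2ra, which encodes CD25 (chr2:11642807-11693193 on GRCm38), was at 379.8, 345, 337 and 343 CPM in the PBS libraries and at 476, 465, 494 and 508 CPM in the H16R libraries. All 4 H16R libraries lay above all 4 PBS libraries (log2 fold change 0.47 ± 0.09, adjusted p = 0.000108). Il2rb, the signaling chain shared with IL-15, rose by 0.57 ± 0.06 (SE) on the log2 scale, and Il2rg, the common gamma chain, by 0.47 ± 0.05. Of the 4 kinase and STAT genes, 1 rose, 1 fell and 2 did not pass. Over the 19 genes of the IL-2 receptor and STAT5 list, 11 rose and 5 fell, with a median log2 fold change of 0.36, against -0.02 for all genes and 0.29 for the same genes with the isotype antibody.

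The targets of STAT5 moved in both directions. Socs2, a feedback inhibitor of cytokine receptors, was at 32.3, 24.8, 29.1 and 26.0 CPM with PBS and at 88.2, 87.6, 107 and 100.3 CPM with H16R, a rise of 3.42-fold with no overlap (log2 fold change 1.77 ± 0.13, adjusted p = 1.05e-11). Il1rl1, the receptor of the alarmin IL-33 carried by tissue Tregs, rose from 20.6, 21.7, 28.1 and 18.7 CPM to 80.2, 93.2, 112 and 95.5 CPM (log2 fold change 2.09 ± 0.12, adjusted p = 6.91e-14). Cish, the classical STAT5-induced inhibitor, differed little between the groups, with 173 to 193 against 198 to 214 CPM (log2 fold change 0.18 ± 0.06, adjusted p = 0.00921). Tnfrsf9, the costimulatory receptor 4-1BB, rose by 0.60 ± 0.09. Bcl2, which protects T cells from death, fell instead: it was at 208, 200.0, 227 and 215 CPM with PBS and at 114, 123, 87.6 and 96.9 CPM with H16R, and the groups did not overlap (log2 fold change -1.01 ± 0.09, adjusted p = 4.55e-10). Lta, which encodes lymphotoxin alpha, fell from 49.9, 44.8, 43.7 and 47.6 CPM to 18.1, 19.6, 15.1 and 16.1 CPM (log2 fold change -1.44 ± 0.10, adjusted p = 2.87e-12). Pim2, a kinase that supports growth, also fell (log2 fold change -0.40 ± 0.10, adjusted p = 0.00165).

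Tnfrsf9, which rose, and Lta, which fell, are shown with a match to the STAT5 motif TTCNNNGAA near the start site. The motif was searched on both strands from 250 bases before to 50 after the RefSeq start on GRCm38.p6. It lay in 4 of the 17 list members with a promoter entry (23.5%: Cish, Lta, Socs3 and Tnfrsf9), against 8.26% of the 9763 tested genes with an entry and 9.55% of all 27025 entries. Of the 4, 3 rose and 1, Lta, fell. In the whole list 11 of 19 rose and 5 fell. The capitals mark the motif in 100 bases of each promoter, given 5′ to 3′ on the strand of the gene.
Lta (chr17:35205352-35205451, minus strand): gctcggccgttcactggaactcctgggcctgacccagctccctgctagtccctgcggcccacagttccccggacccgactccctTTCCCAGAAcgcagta
Tnfrsf9 (chr4:150927823-150927922, plus strand): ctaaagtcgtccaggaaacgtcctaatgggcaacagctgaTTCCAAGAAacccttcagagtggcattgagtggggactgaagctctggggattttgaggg
A match is a description of the letters and was not tested as a binding site.

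The Treg lineage genes rose more often than they fell. Foxp3 (chrX:7573644-7595245 on GRCm38) was at 869, 829, 765 and 775 CPM with PBS and at 1035, 1058, 1126 and 1151 CPM with H16R, 1.35-fold higher (log2 fold change 0.43 ± 0.06, adjusted p = 1.78e-07). Every H16R library lay above every PBS library. Lrrc32, which encodes GARP, the surface anchor of latent TGF-beta, rose by 0.62 ± 0.06, Ctla4, an inhibitory receptor that binds B7 ligands, by 0.57 ± 0.10, and Tnfrsf18, the receptor GITR, by 0.63 ± 0.07. Ikzf2, the factor Helios, passed narrowly at 0.24 ± 0.10 (adjusted p = 0.0445), with 628 to 688 CPM with PBS and 703 to 849 CPM with H16R, and lost its call in an alternative fit. The 3 members that fell were Ikzf4, the factor Eos (-0.44 ± 0.09), Itgb8, an integrin chain that activates TGF-beta (-0.46 ± 0.14), and the receptor gene Gpr83 (-0.46 ± 0.11). Of the 13 lineage genes tested, 8 rose and 3 fell, with a median of 0.24, against 0.43 with the isotype antibody.

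The effector molecules moved furthest among the lists of Treg biology. Of 31 tested, 27 rose and 2 fell, with a median log2 fold change of 1.13, and 16 rose by at least 1. Gzmb, the cytotoxic protease granzyme B (chr14:56258838-56262260 on GRCm38), was at 10.3, 9.52, 8.45 and 7.6 CPM with PBS and at 471, 442, 544 and 681 CPM with H16R, 59.8-fold higher (log2 fold change 5.90 ± 0.28, adjusted p = 1.8e-15). Gzma, granzyme A, was at 1.83, 2.46, 2.25 and 2.14 CPM with PBS and at 102, 77.3, 90.5 and 54.7 CPM with H16R, 37.2-fold higher (log2 fold change 5.22 ± 0.35, adjusted p = 1.13e-12). The lowest H16R library was more than an order of magnitude above the highest PBS library for both granzymes. The granzymes are a family of similar sequences, so reads may be shared between them, which was not tested. The same libraries held more of several cytotoxic markers of NK and CD8 T cells: Ncr1, the NK receptor NKp46, rose by 1.06 ± 0.20 to a mean of 8.73 CPM, and Prf1, perforin, by 1.20 ± 0.18 to 14.6 CPM, while Eomes (-0.86 ± 0.19) and Klrb1c (-0.52 ± 0.20) fell. The part of such cells in the granzyme result was not tested.

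The suppressive cytokine and the inhibitory receptors rose together. Il10 (chr1:131019845-131024974 on GRCm38) was at 35.4, 37.5, 31.4 and 28.8 CPM with PBS and at 215, 249, 273 and 264 CPM with H16R (log2 fold change 2.91 ± 0.15, adjusted p = 6.27e-15). Havcr2, the receptor TIM-3, rose 7.83-fold, from 6.33, 3.69, 5.17 and 3.13 CPM to 33.1, 37.4, 35.5 and 37.4 CPM (log2 fold change 2.97 ± 0.18, adjusted p = 1.27e-13). Lag3, which binds MHC class II, rose from 97.8, 113, 88.1 and 111 CPM to 409, 409, 436 and 436 CPM (log2 fold change 2.04 ± 0.20, adjusted p = 1.39e-09). In these 3 genes the H16R libraries lay close to each other and far above the PBS libraries. Klrg1, a marker of terminally differentiated effector Tregs, rose 3.22-fold, and Icos, a costimulatory receptor that effector Tregs require, 2.33-fold. All 8 costimulatory and inhibitory receptors of the list rose, with log2 fold changes from 0.57 to 2.97.

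Among the secreted products, Areg, an epidermal growth factor ligand of tissue repair, rose by 0.84 ± 0.12, and Il21, a cytokine of helper cells at a mean of only 13.9 CPM, by 1.85 ± 0.41. Ebi3, a subunit of IL-35, fell, with 14.0 to 16.3 CPM with PBS and 11.3 to 12.6 CPM with H16R (log2 fold change -0.39 ± 0.12, adjusted p = 0.00675). Of the 12 transcription factors of the list, 10 rose and 1 fell. Prdm1, which encodes Blimp-1, a driver of effector Tregs, was at 37.2 to 40.6 CPM with PBS and 82.3 to 106 CPM with H16R (log2 fold change 1.24 ± 0.09, adjusted p = 3.13e-12), and Vdr, the vitamin D receptor, at 3.66 to 4.99 against 23.0 to 27.9 CPM (log2 fold change 2.61 ± 0.32, adjusted p = 7.88e-08). Irf4, which acts downstream of the TCR, rose by 0.36 ± 0.11 (adjusted p = 0.00642). Rela, a subunit of NF-kB, fell by a small amount (-0.10 ± 0.04, adjusted p = 0.0186).

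**Figure D2:**
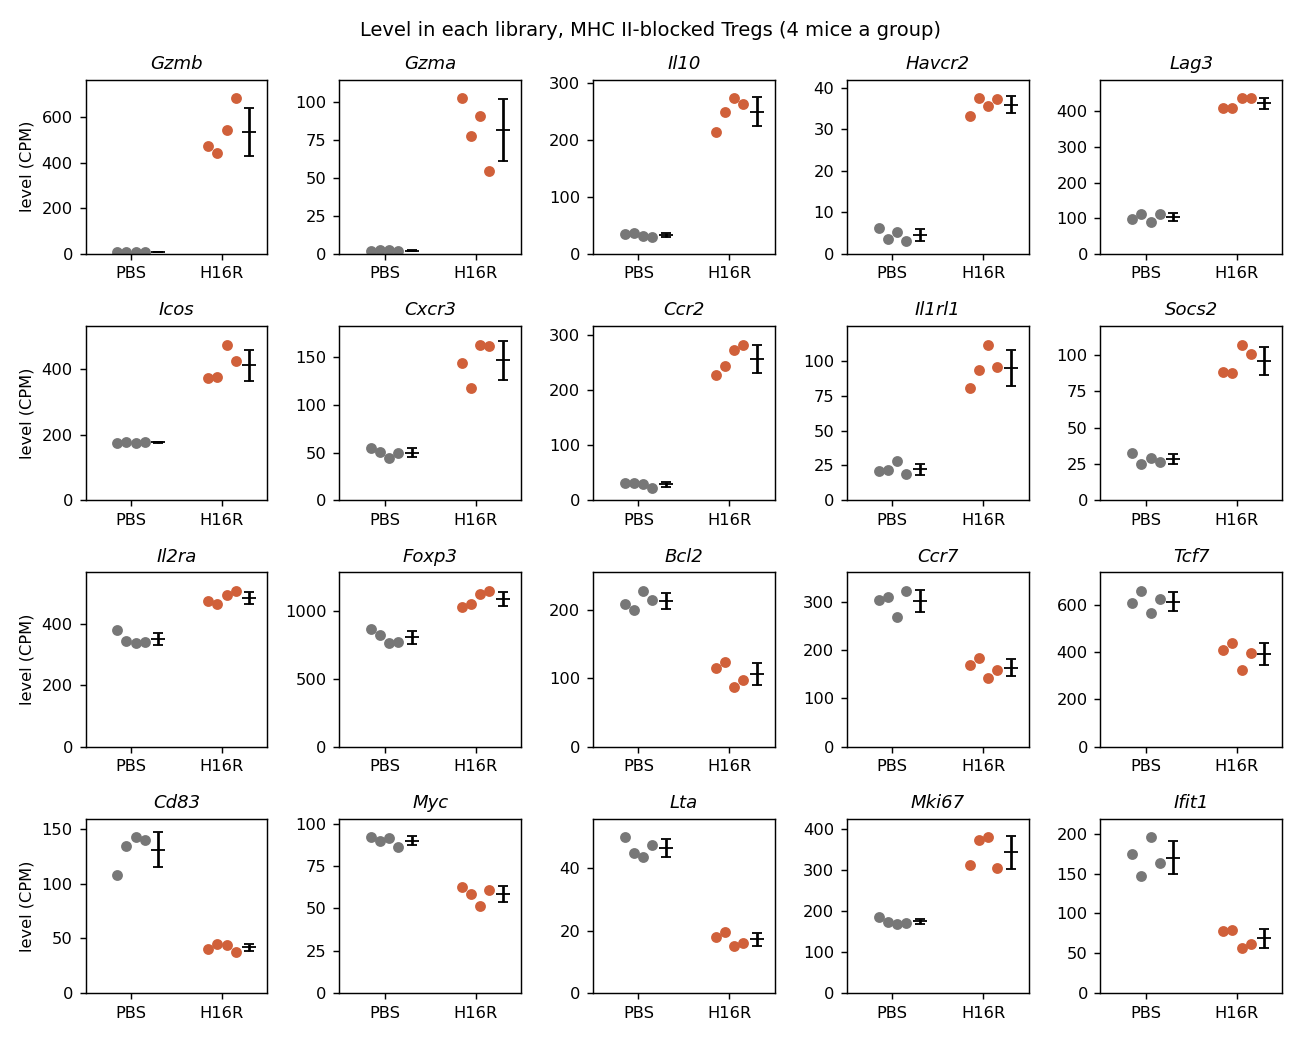
Points are the 4 mice of each group, the cross bar is the mean and the error bar the SD, with the level in CPM on a linear axis that starts at 0. In the panels of Gzmb, Il10, Ccr2 and Havcr2 the H16R points lie far above the PBS points; in those of Bcl2, Cd83, Lta and Ifit1 they lie below them, and in no panel do the groups overlap.

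Most chemokine receptors rose, 10 of 16, where 32.7% of all genes rose. Another 5 of the 16 fell, near the 33.8% of all genes. Ccr2, the receptor of CCL2, was at 31.7, 30.9, 28.6 and 23.0 CPM with PBS and at 226, 243, 271 and 282 CPM with H16R, 8.95-fold higher and without overlap (log2 fold change 3.16 ± 0.14, adjusted p = 5.69e-16). Ccr3, which lies near Ccr2 on the same chromosome (chr9:124021972-124031689 on GRCm38, and chr9:124101950-124113557 on GRCm38), rose as well, from 0.915, 1.26, 1.26 and 0.993 CPM to 11.6, 11.6, 16.1 and 15.1 CPM (log2 fold change 3.60 ± 0.33, adjusted p = 3.99e-10). Cxcr3, the receptor of interferon-induced chemokines, rose by 1.56 ± 0.13, and Ccr8, typical of tissue Tregs, by 0.82 ± 0.11. Itgae, the integrin CD103 that binds epithelium, rose 2.46-fold, with 88.8 to 99.8 CPM with PBS and 210.2 to 259 CPM with H16R (log2 fold change 1.30 ± 0.08, adjusted p = 4.26e-13). Ccr6, the receptor of CCL20, fell from 22.7, 24.9, 23.6 and 24.8 CPM to 11.0, 11.3, 11.5 and 9.22 CPM without overlap (log2 fold change -1.16 ± 0.15, adjusted p = 1.27e-07), and Cxcr4, a receptor for bone marrow and follicles, fell as well (-0.50 ± 0.11). Of 29 chemokine receptors, integrins and related genes, 20 rose and 7 fell, with a median of 0.50.

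Most central Treg genes fell. Of 9 transcription factors, 7 fell and 0 rose, and of 7 receptors 3 fell and 3 rose. The difference between the kinds was not tested. Tcf7, which encodes TCF-1, a factor of naive and memory T cells, was at 612, 661, 566 and 626 CPM with PBS and at 409, 441, 325 and 397 CPM with H16R (log2 fold change -0.65 ± 0.09, adjusted p = 2.57e-07). Bach2, a repressor of effector genes, fell from 114, 108, 106 and 112 CPM to 65.6, 82.7, 54.0 and 59.3 CPM (log2 fold change -0.75 ± 0.11, adjusted p = 1.97e-06), and Klf2, which sets recirculation, was at 808 to 906 CPM with PBS and 634 to 753 CPM with H16R (log2 fold change -0.34 ± 0.10, adjusted p = 0.00403). None of the 3 factors overlapped between the groups, and the share of all genes without overlap was not computed. Ccr7, the receptor that guides T cells to the T zones, fell from 304, 310.3, 269 and 322 CPM to 170.0, 183, 142 and 158 CPM (log2 fold change -0.88 ± 0.13, adjusted p = 1.05e-06). Among the receptors that rose, S1pr1, needed to leave lymphoid organs, changed by 0.60 ± 0.07. Cd27, a costimulatory receptor counted in the same list, rose by 0.63 ± 0.06. Over all 16 genes, 3 rose and 10 fell, with a median of -0.23, against 0.10 with the isotype antibody.

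Most genes of the TCR complex rose. All 5 receptor genes of the list rose, with Cd3d at 286 to 308 CPM with PBS and 397 to 449 CPM with H16R (log2 fold change 0.51 ± 0.07, adjusted p = 8.35e-07). All 7 genes of the calcium branch rose too, including Stim1, the calcium sensor of the endoplasmic reticulum (0.42 ± 0.04), Orai1, the channel it opens (0.65 ± 0.06), and Ppp3cc, a calcineurin subunit (0.50 ± 0.06). Of 12 proximal kinases and adapters, 6 rose and 1 fell: Zap70, the first kinase recruited, rose by 0.40 ± 0.06, and the adapter Lcp2 (SLP-76) by 0.20 ± 0.05. Over the 24 genes, 18 rose and 1 fell, with a median of 0.27.

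Of 22 TCR response genes, 8 rose and 8 fell, shares near the 32.7% and 33.8% of all genes, with a median of 0.05. Nr4a1, an immediate response gene of the TCR, was at 675, 671, 602 and 637 CPM with PBS and at 708, 776, 834 and 769 CPM with H16R, and passed by little (log2 fold change 0.26 ± 0.11, adjusted p = 0.0412). Its groups did not overlap, but its call was lost in an alternative fit. Egr2, a companion of Nr4a1, fell from 32.2, 36.9, 37.6 and 39.7 CPM to 28.9, 23.3, 27.7 and 29.5 CPM (log2 fold change -0.42 ± 0.09, adjusted p = 0.000423), and Tox2 by more (log2 fold change -0.82 ± 0.13, adjusted p = 4.59e-06). Cd83, a surface protein of activated lymphocytes, fell furthest in the list, from 108, 135, 142 and 139.8 CPM to 40.4, 44.8, 44.0 and 37.0 CPM (log2 fold change -1.66 ± 0.17, adjusted p = 2.31e-09). Cd69, an early activation marker, stood at 363 to 405 CPM with PBS and 402 to 431 CPM with H16R and did not pass (log2 fold change 0.15 ± 0.08, adjusted p = 0.102). Tnfrsf4, the receptor OX40, rose by 0.78 ± 0.09, and Ptpn7, a phosphatase of MAP kinases, by 0.64 ± 0.05.

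In the NF-kB and TNF receptor list, 6 of 11 receptors rose and 2 fell, and of 5 NF-kB subunits 1 rose and 4 fell, where 32.7% of all genes rose and 33.8% fell. The difference between the kinds was not tested. Of the 4 subunits that fell, Rela and Relb lost their call in at least 1 alternative. Tnfrsf1b, TNF receptor 2, which promotes Treg growth, was at 372, 386, 356 and 360.2 CPM with PBS and at 625, 581, 733 and 662 CPM with H16R (log2 fold change 0.82 ± 0.08, adjusted p = 7.61e-10). Tnfrsf25, the receptor DR3, fell (log2 fold change -0.43 ± 0.06, adjusted p = 8.75e-07). Rel, the subunit c-Rel, fell from 326, 308, 315 and 308 CPM to 188, 248, 196 and 164 CPM (log2 fold change -0.66 ± 0.15, adjusted p = 0.000573), Nfkb2 by less (log2 fold change -0.24 ± 0.08, adjusted p = 0.0085), and Relb by less still (log2 fold change -0.19 ± 0.08, adjusted p = 0.0416). Traf3, which holds the non-canonical NF-kB pathway in check, fell as well (-0.37 ± 0.06). Over the 28 genes, 10 rose and 9 fell, again near the shares of all genes, with a median of 0.02. With all biotypes tested, 5 instead of 9 fell.

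Genes of mitosis rose together, and genes of DNA replication mostly did not pass. Of 46 mitotic genes, 42 rose and 0 fell, with a median log2 fold change of 0.89. Mki67, the proliferation antigen Ki-67, was at 184, 174, 169 and 172 CPM with PBS and at 313, 374, 379 and 305 CPM with H16R (log2 fold change 0.97 ± 0.14, adjusted p = 6.11e-07). Ccnb1, cyclin B1, rose from 13.1, 11.3, 13.1 and 13.0 CPM to 26.4, 25.2, 32.4 and 26.0 CPM (log2 fold change 1.13 ± 0.16, adjusted p = 1.17e-06). Birc5, survivin, rose 2.69-fold (log2 fold change 1.43 ± 0.17, adjusted p = 3.19e-08). In these 3 genes all H16R libraries lay above all PBS libraries. Of 40 replication genes, 11 rose, 4 fell and 25 did not pass, with a median of 0.06, and 2 fell without PBS replicate 3 or 4 or H16R replicate 2 or 4. Mcm5, a subunit of the replicative helicase, stood at 95.9, 93.9, 97.1 and 104 CPM with PBS and at 96.9, 84.8, 103 and 101 CPM with H16R, and the groups overlapped (log2 fold change -0.02 ± 0.10, adjusted p = 0.881). Rrm2, the ribonucleotide reductase subunit that supplies nucleotides, rose by 0.98 ± 0.14, and Chaf1b, a histone chaperone, by 0.55 ± 0.07. The clamp loader genes Rfc4 (-0.34 ± 0.11) and Rfc3 (-0.16 ± 0.09, adjusted p = 0.0978) fell.

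The promoters of the mitotic genes are shown for the CHR, the letters TTTGAA, at which cell cycle genes are known to be repressed in resting cells. The letters lay within the same 300-base window, on either strand, in 29 of 37 mitotic genes with an entry (78.4%), against 14.6% of the tested genes and 20.2% of all entries, and 28 of the 29 rose and 0 fell. In the whole list 42 of 46 rose and 0 fell. A difference between members with and without the letters was not tested. Ube2c, a ubiquitin-conjugating enzyme of the anaphase-promoting complex (log2 fold change 1.39 ± 0.17, adjusted p = 1.02e-07), and Prc1, which bundles microtubules at cytokinesis (log2 fold change 1.36 ± 0.13, adjusted p = 1.41e-09), carried it at positions -29 and -30 from the start. The capitals mark the match, on the minus strand in Ube2c.
Ube2c (chr2:164769829-164769928, plus strand): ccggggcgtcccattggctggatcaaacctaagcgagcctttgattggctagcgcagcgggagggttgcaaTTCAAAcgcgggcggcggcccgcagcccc
Prc1 (chr7:80294376-80294475, plus strand): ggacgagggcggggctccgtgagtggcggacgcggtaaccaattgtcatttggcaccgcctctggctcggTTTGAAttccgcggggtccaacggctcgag

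Of 10 inhibitors of cell cycle kinases, 6 rose and 0 fell. Cdkn2c, the CDK4 and CDK6 inhibitor p18, was at 12.4, 11.9, 12.3 and 12.3 CPM with PBS and at 39.5, 38.6, 48.1 and 44.5 CPM with H16R (log2 fold change 1.81 ± 0.11, adjusted p = 1.36e-13). Cdkn1a, the inhibitor p21, rose from 12.2, 13.0, 13.2 and 11.4 CPM to 28.8, 28.1, 30.4 and 27.9 CPM (log2 fold change 1.21 ± 0.14, adjusted p = 1.46e-08). Neither gene overlapped between the groups. E2f2, a factor that drives entry into S phase, rose 2.28-fold, Ccnd2, cyclin D2, 1.19-fold, and Cdk4 fell slightly (-0.12 ± 0.05, adjusted p = 0.0278). Of 21 genes in this list, 13 rose and 1 fell, with a median of 0.32.

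In the Bcl2 family 7 of 13 genes rose and 3 fell, with a median of 0.15, where 32.7% of all genes rose and 33.8% fell. Only 1 fell without PBS replicate 3 or H16R replicate 1 or 4. Besides the fall of Bcl2 given above, Mcl1, a survival factor of T cells, fell by a margin that just passed (-0.08 ± 0.04, adjusted p = 0.0839), and Pmaip1, the BH3-only gene Noxa, likewise (adjusted p = 0.0952). Of 6 BH3-only genes, 3 rose and 1 fell, and both pore-forming effectors rose. Bcl2l11, which encodes Bim, was at 51.4, 51.6, 50.4 and 48.4 CPM with PBS and at 77.3, 81.8, 84.4 and 76.6 CPM with H16R (log2 fold change 0.67 ± 0.05, adjusted p = 3.02e-11), and Bak1, an effector, rose by 0.79 ± 0.10. Bad, another BH3-only gene, rose by 0.44 ± 0.08.

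Most subunits of oxidative phosphorylation rose by small amounts. Of 75 tested, 56 rose, 2 fell and 17 did not pass, with a median of 0.31 and a highest value of 0.68, and none reached 1. Cox8a, of cytochrome c oxidase, was at 94.5, 94.0, 95.7 and 101 CPM with PBS and at 149, 135, 164 and 168 CPM with H16R (log2 fold change 0.68 ± 0.13, adjusted p = 6.36e-05). Ndufa11, of complex I, rose by 0.50 ± 0.09, and Cox5a by 0.54 ± 0.10. All 11 genes of complex IV rose, as did 25 of 37 of complex I. Sdha (-0.12 ± 0.03) and Ndufa5 (-0.20 ± 0.10, adjusted p = 0.0861) were the 2 that fell.

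Of 25 glycolysis genes, 16 rose and 6 fell, with a median of 0.24. Slc16a3, the lactate exporter MCT4, rose 3.67-fold, from 8.52, 8.16, 7.57 and 8.0 CPM to 28.7, 27.1, 34.6 and 27.9 CPM (log2 fold change 1.88 ± 0.15, adjusted p = 2.09e-11), and Aldoc, an aldolase, 3.18-fold (log2 fold change 1.67 ± 0.12, adjusted p = 3.65e-12). Ldha, which makes lactate, rose 1.82-fold, while Ldhb, which favours the reverse reaction, fell (-0.44 ± 0.08). Hk2, the inducible hexokinase, fell from 14.1, 13.1, 14.5 and 13.8 CPM to 10.0, 11.3, 10.2 and 10.3 CPM (log2 fold change -0.41 ± 0.09, adjusted p = 0.000464), and Pfkm, the muscle phosphofructokinase, fell too (-0.36 ± 0.07). In the sterol and fatty acid list, 17 of 32 rose and 7 fell, with a median of 0.14: Ebp, a sterol isomerase, rose 2.04-fold, whereas Fasn, fatty acid synthase (-0.40 ± 0.05), and Acaca, acetyl-CoA carboxylase (-0.60 ± 0.08), fell. Sqle, an oxygenase of the sterol branch, overlapped between the groups and did not pass (log2 fold change 0.15 ± 0.12, adjusted p = 0.291).

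Myc and the genes of ribosome production fell almost throughout. Myc (chr15:61985391-61990374 on GRCm38) was at 92.0, 89.8, 91.8 and 86.4 CPM with PBS and at 62.7, 58.6, 51.6 and 60.9 CPM with H16R, without overlap (log2 fold change -0.62 ± 0.09, adjusted p = 1.04e-06). Of 41 genes in the list, 36 fell and 0 rose, with a median log2 fold change of -0.47, close to the -0.44 found with the isotype antibody. Utp20, of the small subunit processome, fell from 65.7, 64.0, 67.0 and 67.3 CPM to 34.5, 39.8, 34.0 and 32.1 CPM (log2 fold change -0.91 ± 0.10, adjusted p = 2e-08), Polr1b, a subunit of RNA polymerase I, was at 39.3 to 43.8 CPM with PBS and 21.5 to 26.6 CPM with H16R (log2 fold change -0.86 ± 0.07, adjusted p = 2.6e-11), and Grwd1, a ribosome assembly factor, at 23.2 to 25.7 CPM and 13.7 to 16.1 CPM (log2 fold change -0.76 ± 0.07, adjusted p = 1.26e-10). Nol11, another processome subunit, fell by less (log2 fold change -0.22 ± 0.05, adjusted p = 0.000159).

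The E-box CACGTG, the letters that Myc is known to bind, lay in the 300-base promoter window of 11 of 35 members with an entry (31.4%), against 11.6% of tested genes and 8.09% of all entries, and 9 of the 11 fell and 0 rose. In the whole list 36 of 41 fell and 0 rose. A difference between members with and without the E-box was not tested. It is shown for Nop2, a ribosomal RNA methyltransferase, and for Nol11, with the E-box in capitals.
Nop2 (chr6:125131783-125131882, plus strand): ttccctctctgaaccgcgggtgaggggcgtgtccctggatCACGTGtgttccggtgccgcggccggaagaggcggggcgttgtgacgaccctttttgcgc
Nol11 (chr11:107189382-107189481, minus strand): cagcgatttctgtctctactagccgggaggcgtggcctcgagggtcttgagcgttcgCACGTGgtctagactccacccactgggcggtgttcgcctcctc

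Proteasome subunits rose, 32 of 36 with 0 lower, at a median of 0.25. Psme2, of the interferon-induced activator PA28, was at 204, 191, 194 and 191 CPM with PBS and at 298, 275, 309 and 329 CPM with H16R (log2 fold change 0.64 ± 0.07, adjusted p = 3.61e-09), and Psmd13 (0.61 ± 0.06) and Psmd8 (0.60 ± 0.07), of the regulatory particle, rose in like measure. All 5 immunoproteasome genes rose. In the list of ATF4 and amino acid genes, 6 of 21 rose and 8 fell, near the 32.7% and 33.8% of all genes. Ddit4, an inhibitor of mTORC1, rose 2.05-fold, Sesn2, another such inhibitor, 1.59-fold, and Psph, of serine synthesis, 1.47-fold, whereas Slc7a5, the large neutral amino acid transporter, fell from 52.3, 49.4, 50.6 and 60.5 CPM to 36.1, 36.2, 37.4 and 35.8 CPM (log2 fold change -0.55 ± 0.08, adjusted p = 6.29e-07), with Slc38a2 (-0.45 ± 0.10) and Shmt1 (-0.69 ± 0.09).

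Most cytosolic chaperones fell, 9 of 10 with 1 higher. Of 13 chaperones of the endoplasmic reticulum, 3 fell, 4 rose and 6 did not pass, where 33.8% of all genes fell and 32.7% rose, and the difference between the compartments was not tested. Without PBS replicate 3, 8 instead of 5 chaperones of both compartments rose. Those of the endoplasmic reticulum that rose included Dnajb11 (0.41 ± 0.06), Manf (0.33 ± 0.10) and Pdia4 (0.31 ± 0.10). Hspa1b, an inducible Hsp70, was at 61.0, 108, 154 and 71.5 CPM with PBS and at 26.2, 20.5, 30.9 and 17.0 CPM with H16R (log2 fold change -2.06 ± 0.49, adjusted p = 0.000745), and Hspa1a at 34.0, 60.6, 97.8 and 32.6 CPM and 13.0, 12.2, 16.7 and 7.15 CPM (log2 fold change -2.21 ± 0.58, adjusted p = 0.00167). The PBS libraries of both genes spread widely but lay above all H16R libraries. The pair are near-identical copies, so the split of reads between them is uncertain. Hsph1, a partner of Hsp70, fell too (-0.71 ± 0.16). Hsp70 genes also belong to the handling response, which was lower with H16R as a whole, and its part in the fall was not tested.

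Of 31 interferon-stimulated genes, 13 rose and 9 fell, with a median of 0.05, where 32.7% of all genes rose and 33.8% fell. Of 20 antiviral genes, 5 rose and 9 fell, while all 6 interferon-inducible GTPases rose. Ifit1, which binds viral RNA, was at 175, 147, 196 and 163 CPM with PBS and at 77.5, 79.4, 56.3 and 61.0 CPM with H16R, without overlap (log2 fold change -1.32 ± 0.15, adjusted p = 1.95e-08). Isg15, a ubiquitin-like modifier, fell (log2 fold change -0.71 ± 0.10, adjusted p = 5.77e-07), and so did Ifit3b, a member of a family of similar copies (-0.79 ± 0.16). Oas1a, a sensor of double-stranded RNA, rose from 35.3, 31.8, 43.3 and 30.0 CPM to 77.4, 67.5, 68.7 and 73.5 CPM (log2 fold change 1.03 ± 0.09, adjusted p = 4.24e-10). The GTPases Gbp2 (0.88 ± 0.11) and Gbp3 (0.85 ± 0.07) rose. Irf7, the factor that amplifies the response, stood at 63.4, 55.6, 78.7 and 54.2 CPM with PBS and at 62.1, 63.8, 57.7 and 60.9 CPM with H16R and did not pass (log2 fold change -0.05 ± 0.09, adjusted p = 0.685).

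Genes that moved in opposite directions carried the same element. The core of the interferon-stimulated response element, GAAANNGAA, lay in the 300-base window of 18 of 24 list members with an entry (75%), against 8.93% of tested genes and 9.76% of all entries, and 8 of the 18 rose and 5 fell. In the whole list 13 of 31 rose and 9 fell. Ifit1, which fell, and Oas1a, which rose, are shown with the matches in capitals. In Ifit1 they are on the minus strand, with 2 of the 3 overlapping, and in Oas1a the 2 matches overlap.
Ifit1 (chr19:34640765-34640864, plus strand): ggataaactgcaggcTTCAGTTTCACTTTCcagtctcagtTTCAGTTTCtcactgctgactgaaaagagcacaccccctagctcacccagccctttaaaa
Oas1a (chr5:120907526-120907625, minus strand): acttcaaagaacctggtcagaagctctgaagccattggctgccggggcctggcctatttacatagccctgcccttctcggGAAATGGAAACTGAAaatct

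Of 8 GIMAP genes, small GTPases of lymphocyte survival that lie in a cluster on chromosome 6, 5 rose and 0 fell. Gimap7 rose 2.11-fold (log2 fold change 1.08 ± 0.10, adjusted p = 8.67e-10), Gimap4 rose 1.56-fold and Gimap9 1.3-fold.

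Genes of the actin cytoskeleton and of the galectin, S100 and annexin families rose with few exceptions. Of 22 genes around Cdc42, Nck and Pak, 19 rose and 2 fell, with a median of 0.47. Actb, beta actin, was at 2379 to 2652 CPM with PBS and 3929.9 to 5014 CPM with H16R. Actg1, gamma actin, rose 2.28-fold and Vim, the intermediate filament vimentin, 2.45-fold. In each of the 3 the lowest H16R library exceeded the highest PBS library. Pak1, a kinase that Cdc42 activates, fell (log2 fold change -0.69 ± 0.14, adjusted p = 0.000152), as did Arhgef7 by little (-0.09 ± 0.04, adjusted p = 0.0475). All 14 galectin, S100 and annexin genes rose, 9 of them by at least 1, with a median of 1.35. S100a6, a calcium-binding protein of activated cells, was at 73.2, 75.5, 51.4 and 62.4 CPM with PBS and at 456, 387, 567 and 513 CPM with H16R (log2 fold change 2.88 ± 0.16, adjusted p = 3.5e-14). Lgals3, galectin-3, was at 13.8, 14.6, 12.7 and 10.6 CPM and 84.8, 80.4, 107 and 107 CPM (log2 fold change 2.88 ± 0.21, adjusted p = 4.13e-12), and S100a4 rose 5.17-fold (log2 fold change 2.37 ± 0.12, adjusted p = 3.89e-15).

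**Figure D3:**
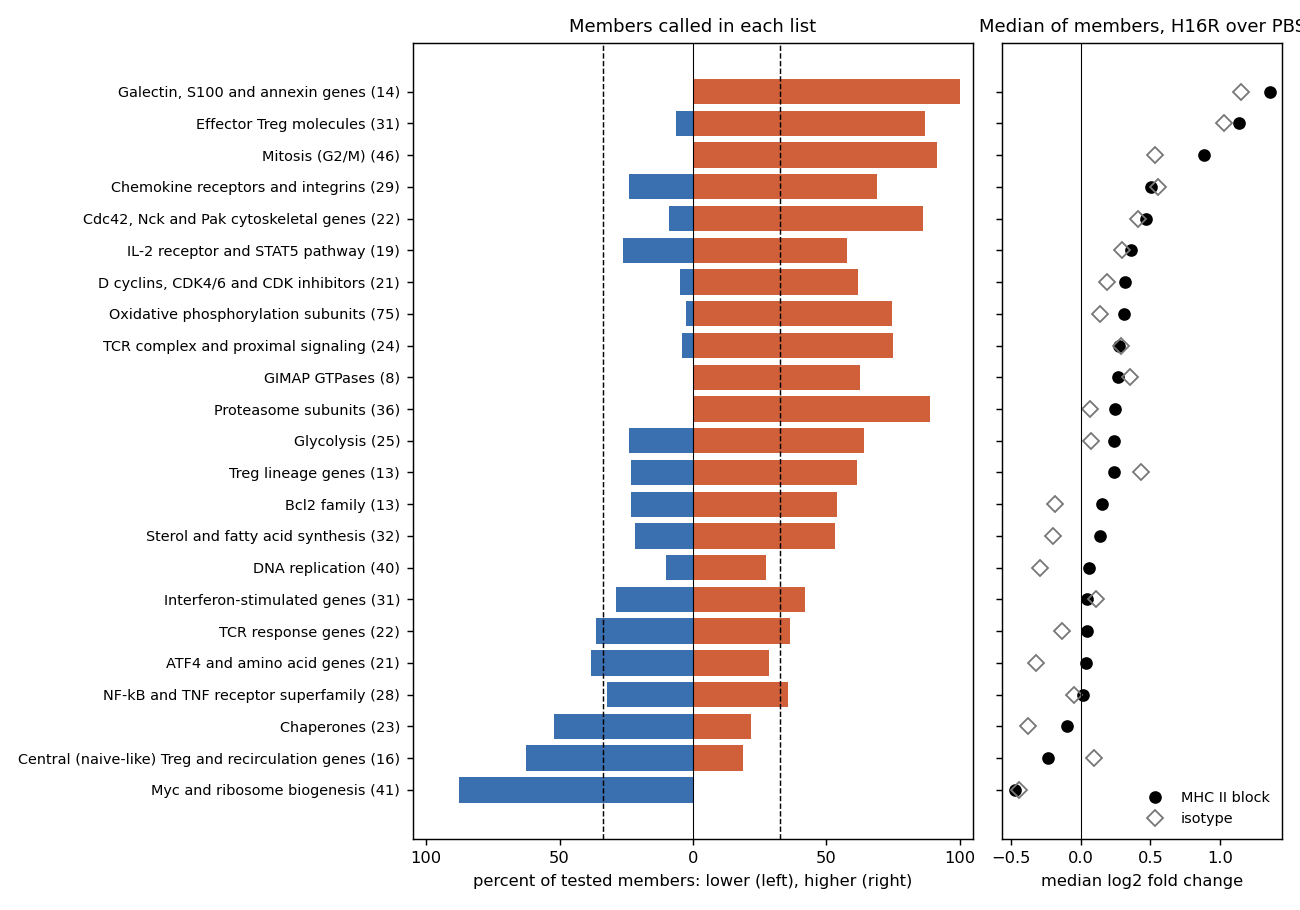
Left, the share of tested members (number in brackets) of each gene list that rose (orange, to the right) or fell (blue, to the left) with H16R under MHC II block; dashed lines mark the shares over all genes, 32.7% and 33.8%. Right, the median log2 fold change of each list under MHC II block (filled circles) and with the isotype antibody (open diamonds); galectin, S100 and annexin genes lie at the top at 1.35 and ribosome biogenesis at the bottom at -0.47.

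The lists were even across mice to differing degrees. In the effector, mitosis, galectin and ribosome lists, the mean standardized level separated the 8 libraries by treatment. In the interferon, NF-kB, TCR response and ATF4 lists it did not. The 4 H16R libraries also differed among themselves in some lists: replicate 2 had a mean z-score of -0.72 over the replication genes, where the other 3 lay between 0.33 and 0.88, and of -0.15 over the oxidative phosphorylation genes, where the others lay between 0.68 and 1.23.

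**Figure D4:**
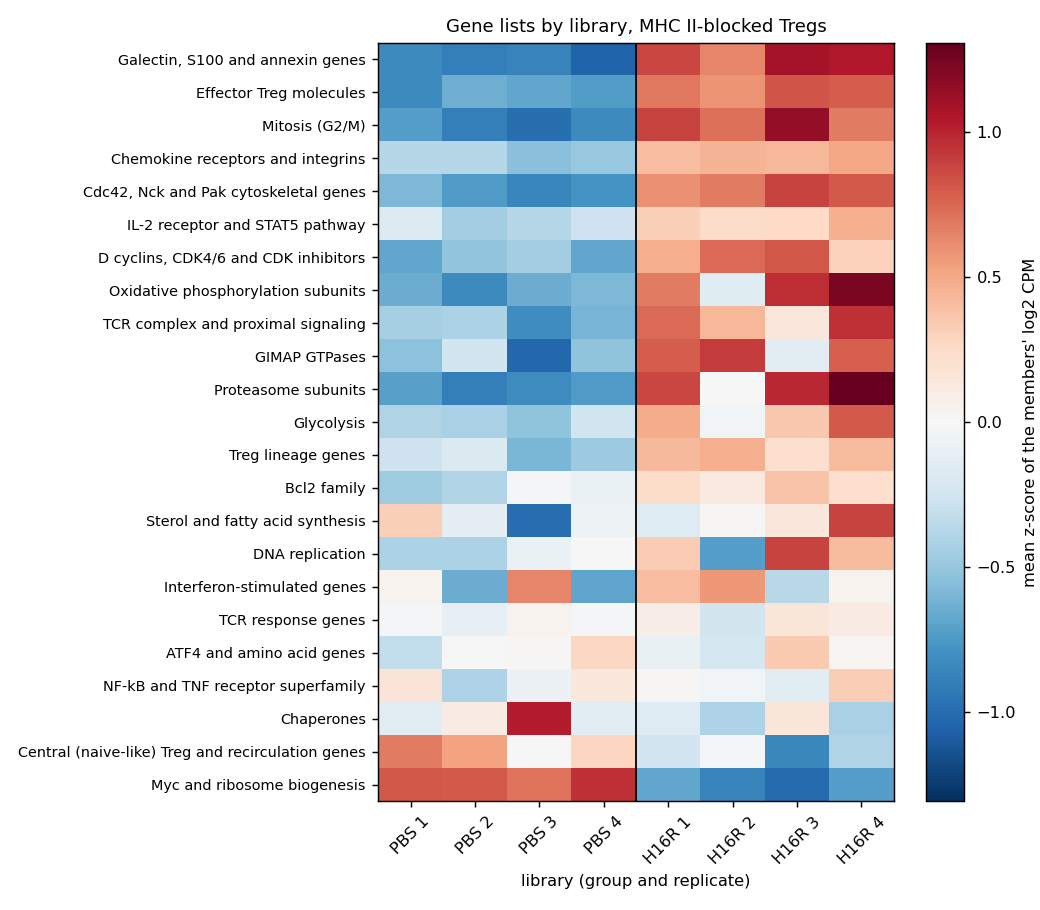
Each cell is the mean z-score, over the members of a list, of log2 CPM in 1 library, standardized over the 8 libraries; columns are the 4 PBS and the 4 H16R libraries and rows are ordered by the median log2 fold change. The upper rows pass from blue (below the mean) to red (above it) at the line between the groups, the bottom row passes the other way, and rows such as interferon-stimulated genes show no such step.

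Several of the largest changes lay outside the lists. Gcg, the preproglucagon gene (chr2:62474530-62483650 on GRCm38), was at 1.69, 1.17, 1.54 and 0.807 CPM with PBS and at 81.2, 85.5, 67.3 and 76.0 CPM with H16R, 59.4-fold higher (log2 fold change 5.89 ± 0.42, adjusted p = 3.79e-12). Ifitm1, an interferon-induced membrane protein, was at 0.915, 1.64, 1.03 and 0.993 CPM and 31.6, 31.2, 48.1 and 57.2 CPM (log2 fold change 5.20 ± 0.44, adjusted p = 8.69e-11), and its neighbour Ifitm3 at 3.91, 2.3, 6.84 and 3.32 CPM and 36.6, 33.9, 48.2 and 56.1 CPM (log2 fold change 3.39 ± 0.37, adjusted p = 1.16e-08). The H16R libraries were far above the PBS libraries in all 3 genes, and the pair of Ifitm genes are similar copies whose reads may be shared. Ccl3, a chemokine of inflamed tissue, rose 16.8-fold, with 1.92 to 2.82 CPM with PBS and 34.4 to 57.2 CPM with H16R (log2 fold change 4.07 ± 0.27, adjusted p = 1.13e-12), Lgals7, galectin-7, 16.4-fold (log2 fold change 4.04 ± 0.24, adjusted p = 6.19e-14), and Fam20a, a pseudokinase of the secretory pathway, 9.36-fold (log2 fold change 3.23 ± 0.23, adjusted p = 4.25e-12).

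Mcpt1, a mast cell protease, had the largest log2 fold change among the called genes whose 8 libraries averaged over 5 CPM. It was at 0, 0.0946, 0.151 and 0.341 CPM with PBS and at 7.53, 8.24, 13.7 and 12.5 CPM with H16R (log2 fold change 6.09 ± 0.53, adjusted p = 1.71e-10), so its fold rests on few PBS reads. Hdc, which makes histamine, was at 1.55, 1.26, 1.26 and 1.49 CPM with PBS and at 15.7, 18.1, 18.2 and 24.3 CPM with H16R (log2 fold change 3.78 ± 0.45, adjusted p = 5.01e-08). Because Mcpt1, Hdc and Ccr3 are also known from mast cells, basophils and eosinophils, 9 markers of those cells, chosen after these values were seen, were read as counts per library. Fcer1a, the IgE receptor, had 0 to 5 counts with PBS and 9 to 25 with H16R, Mcpt8, a basophil protease, 0 to 4 against 19 to 77, and Siglecf 3 to 7 against 13 to 18. Kit (402 to 874 against 311 to 429) and Cpa3 (72 to 169 against 57 to 111) had lower ranges with H16R that overlapped those with PBS. Ms4a2 had 0 to 6 against 4 to 10 counts, Prss34 0 to 7 against 4 to 25, and Epx and Tpsb2 at most 5 in any library. These counts are not scaled for depth. The part of such cells in the rise of Mcpt1, Hdc and Ccr3 was not tested.

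The largest falls were smaller than the largest rises. Slc7a10, an amino acid transporter, was at 13.1, 15.9, 12.3 and 19.3 CPM with PBS and at 2.81, 2.38, 2.54 and 1.89 CPM with H16R (log2 fold change -2.66 ± 0.25, adjusted p = 7.64e-10). Il1r2, the IL-1 decoy receptor of follicular and activated Tregs, fell from 17.7, 25.9, 28.3 and 42.4 CPM to 7.98, 5.63, 7.35 and 5.26 CPM (log2 fold change -2.13 ± 0.35, adjusted p = 8.8e-06), and Dntt, the polymerase that edits antigen receptor joints in thymocytes, from 13.5, 18.0, 7.57 and 12.2 CPM to 2.81, 3.06, 2.26 and 3.19 CPM (log2 fold change -2.17 ± 0.27, adjusted p = 9.45e-08). In each of the 3 the groups stood apart. Plagl1, a zinc-finger factor (-1.99 ± 0.25), Adgrg1, an adhesion receptor of cytotoxic cells (-2.07 ± 0.24), Sspo, which encodes SCO-spondin (-2.34 ± 0.29), and Fam43a (-1.82 ± 0.19) fell as well, together with the predicted genes Gm3373 (-1.92 ± 0.34) and Gm3500 (-1.89 ± 0.33), which lie near each other on chromosome 14 and may share reads. Car1, carbonic anhydrase 1, fell from 11.2, 17.5, 44.8 and 30.3 CPM to 5.17, 5.93, 11.2 and 6.13 CPM, with 1 PBS library equal to the highest H16R library to 3 digits (log2 fold change -1.87 ± 0.43, adjusted p = 0.000447).

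The response to H16R was then compared with the one in mice given the isotype antibody, 4 with H16R and 4 with PBS, which share no library with the 8 above. The interaction of H16R and antibody, fitted in the same edgeR model, passed for 2363 genes (19.1%), 1313 with a higher and 1050 with a lower log2 fold change under MHC II block. Of the 1576 genes called both here and in the H16R comparison under block, 659 had a larger change of the same sign than with isotype, 371 a smaller one, and 546 had the opposite sign. The count depended on single libraries, and was 3593 without isotype PBS replicate 4 and 1488 without MHC II block H16R replicate 3. Isotype PBS replicate 1 held more B cell (794.5 CPM by library total in sum, against 132 to 177 in the rest of its group) and MHC class II transcripts (2550.0 against 789.5 to 1002), and 1740 genes passed without it.

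Granzymes and chemokines rose more under the block. Gzma rose by 5.22 under MHC II block and by 1.10 with isotype, a difference of 4.11 ± 0.54 (adjusted p = 1.84e-05), and its means were 81.2 and 7.72 CPM with H16R. Gzmb differed by 1.87 ± 0.37 (adjusted p = 0.00193), Ccl3 by 2.51 (adjusted p = 0.000155) and Ifitm1 by 2.89 (adjusted p = 0.0125). Ccl5, another chemokine, rose by 1.45 ± 0.20 under block, from 26.3, 21.8, 28.0 and 32.0 CPM to 77.8, 80.8, 75.6 and 62.5 CPM, and changed by 0.09 with isotype (adjusted p = 0.00265), and Cdkn1a by 1.21 against 0.19 (adjusted p = 0.00127). These differences also passed without isotype PBS replicate 1 (Gzma 3.80, Gzmb 1.98, Ccl3 2.16, Ifitm1 2.66, Ccl5 1.30 and Cdkn1a 1.11). Il10 differed by less (0.57, adjusted p = 0.0688, and 0.63 without that library), and Havcr2 (0.82, adjusted p = 0.038) and Ccr3 (1.29, adjusted p = 0.068) no longer passed without it (0.66, adjusted p = 0.133, and 1.02, adjusted p = 0.215). In the same contrast the summed NK and CD8 T cell markers were 32.7 to 41.7 CPM in isotype H16R libraries and 71.6 to 94.4 CPM in MHC II block H16R libraries, scaled to library totals, and 8 of 9 markers passed higher, 7 without that library. Whether cytotoxic cells carry part of the granzyme and Ccl5 differences was not tested.

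Several Treg lineage and central Treg genes rose less, or fell further, under the block. Lrrc32 rose by 0.62 against 0.97 with isotype (adjusted p = 0.0106), Cd27 by 0.63 against 0.93 (adjusted p = 0.0235) and Foxp3 by 0.43 against 0.64 (adjusted p = 0.0793). Tcf7 changed by -0.65 against -0.19 (adjusted p = 0.0153), Tnfrsf25 by -0.43 against -0.08 (adjusted p = 0.00941), and Ifit1 by -1.32 against -0.45 (adjusted p = 0.0101). Without isotype PBS replicate 1, Foxp3 no longer passed (-0.21, adjusted p = 0.107), nor did Ikzf2 (-0.41 with it, -0.34 and adjusted p = 0.141 without). Of 16 central Treg genes 9 differed downward and 0 upward, 7 without that library, and of 13 lineage genes 6 differed downward and 0 upward, but 2 and 1 without it. Of all 12390 genes 1050 differed downward and 1313 upward.

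Many replication genes had higher log2 fold changes under the block. Replication genes had a median log2 fold change of -0.29 with isotype and 0.06 under block, and 23 of 40 differed upward, 14 without isotype PBS replicate 1. Mcm5 changed by -0.02 under block and by -0.59 with isotype (adjusted p = 0.012), and Chaf1b by 0.55 against -0.03 (adjusted p = 0.000594). Hk2 fell by less under the block, -0.41 against -1.19 (adjusted p = 0.000484), as did Slc7a5, -0.55 against -0.97 (adjusted p = 0.0136), and Pim2, -0.40 against -1.03 (adjusted p = 0.0065). Of 36 proteasome genes 18 differed upward, 10 without that library, and of 32 sterol and fatty acid genes 11 did, with and without it. Of 46 mitotic genes 9 differed upward and 1 downward, near the 19.1% of all genes that differed, but 2 and 1 without it. Of all 12390 genes 1313 differed upward and 1050 downward, and of 12353 genes 972 and 768 without that library. Of 41 genes of the Myc and ribosome list 3 differed upward and 1 downward, against 1 and 2 without it.

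The genes with the largest differences included markers of other cells. Lyz2, lysozyme of myeloid cells, stood at 2.46, 1.77, 6.21 and 3.35 CPM with PBS and 2.45, 4.53, 10.1 and 3.04 CPM with H16R under block, where it did not pass, and changed by -3.87 with isotype (difference 4.39, 3.14 without isotype PBS replicate 1). Pax5 (difference 3.52), a factor that defines B cells, and Scd1, a fatty acid desaturase (4.35), had differences of the same sign. Without that library Scd1 still passed at a smaller difference (2.77, adjusted p = 0.0877) and Pax5 no longer passed (2.16, adjusted p = 0.29). Of the B cell markers 9 of 10 differed upward, 4 without it, and of myeloid and dendritic cell markers 10 of 12, 5 without it. Of all 12390 genes 1313 did, and 972 of 12353 without it. Plasma cell markers (4 of 4, and 4 without it), MHC class II genes (7 of 7, and 6) and neutrophil markers (3 of 4, and 2) differed upward as well. The part of such cells in the differences between the antibody arms was not tested. Downward, Car1 fell under block while it changed by 0.09 with isotype (adjusted p = 0.0444), and Pgpep1l (-0.91), Actn2, alpha-actinin 2 (-0.88), and Gm14085 (-0.87) differed by less. No difference between the antibody arms was called for Mcpt1, Gcg, Il1rl1, Klrg1, Bcl2, Lta or Cd83; the 95% interval of the difference was -3.35 to 1.76 for Mcpt1, -1.57 to 2.02 for Gcg, -0.88 to 0.17 for Klrg1, -0.40 to 0.14 for Bcl2, -0.21 to 0.37 for Lta and -0.43 to 0.52 for Cd83. For Il1rl1 the interval, not adjusted over genes, was -0.71 to -0.01 and left out 0 (adjusted p = 0.163). Without isotype PBS replicate 1 the difference for Mcpt1 was -4.14 (adjusted p = 0.358), outside that interval.

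**Figure D5:**
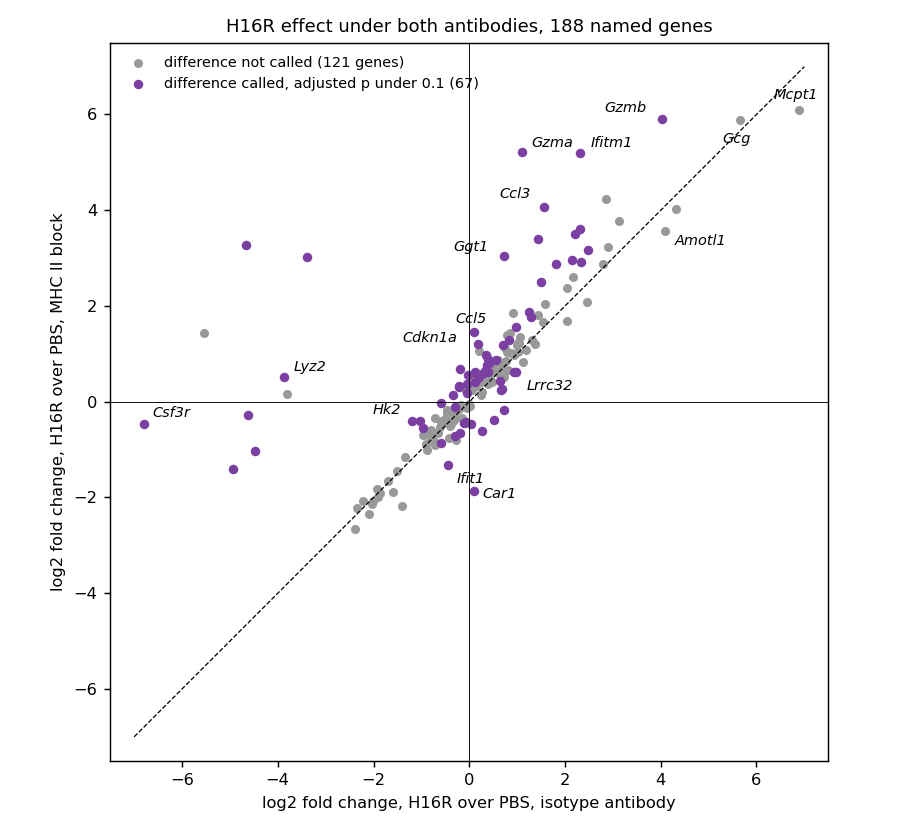
Each point is 1 of 188 named genes, with its log2 fold change, H16R over PBS, with the isotype antibody (x axis) and under MHC II block (y axis); the dashed line marks equal change. Purple points are the 67 genes whose difference passed: Gzma and Ccl3 lie above the line, Ifit1 and Car1 below it, and markers such as Lyz2 and Csf3r lie at the left, at -3.87 and -6.80 with isotype.

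H16R was compared with the 2 other IL-2 molecules at the same dose and day under MHC II block, WT IL-2 and the 3x mutein, 4 mice each, which makes 2 pairs with p-values adjusted over the genes within each. Both comparisons use the 4 H16R libraries again. Against WT IL-2, 7119 genes (57.5%) passed, 3157 higher and 3962 lower with H16R. Against 3x, 3127 (25.2%) passed, 1555 higher and 1572 lower, a split of 49.7% higher that became 38.8% (1195 higher, 1884 lower) without TMM and 39% (1153 higher, 1803 lower) with limma on FPKM. The count against 3x was 1975 without MHC II block 3x replicate 4.

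Against WT IL-2, effector genes and several of the genes with the largest rises were higher with H16R, and 21 of 31 effector genes passed higher. Gcg was 3.54 ± 0.34 higher on the log2 scale, Ifitm1 3.51 ± 0.37, Gzmb 2.68 ± 0.23 and Il10 1.60 ± 0.14. For Gzmb the means were 83.3 CPM with WT IL-2 and 535 CPM with H16R. Mcpt1 (4.02), Lgals7 (3.35) and Fam20a (2.79) were higher too. Foxp3 was 0.46 ± 0.06 higher and Il2ra 0.38 ± 0.09. Of 46 mitotic genes 42 were higher and 0 lower, and of 36 proteasome genes 34 were higher, while 29 of 41 ribosome genes and 16 of 23 chaperones were lower. Klrg1 did not pass, with a 95% interval of the difference of -0.20 to 0.52, and Gzma was higher by 0.57 ± 0.26 (adjusted p = 0.0634). The largest falls against WT IL-2, in Fcna, Vcam1, C1qc, Csf3r and C1qb (-5.78 to -4.97), lay in genes of myeloid and stromal cells, and 1 library, MHC II block WT replicate 1, held 706.5 CPM by library total of summed myeloid markers against 42.3 to 94.7 in the rest of its group. Without that library the 5 differences were -0.92, -0.84, -0.37, -1.67 and -0.15, and only Csf3r passed (adjusted p = 0.099). The mitotic count was 43 without it, and 6668 genes passed in all. In the same comparison 10 of 10 B cell markers, 4 of 4 plasma cell markers, 6 of 7 MHC class II genes and 8 of 11 genes of the handling response were lower with H16R, and 1, 4, 4 and 8 without that library. Of myeloid and dendritic cell markers 10 of 12 were lower, 4 without it, and of neutrophil markers 4 of 4, 0 without it. Of NK and CD8 T cell markers 4 of 9 were lower and 1 higher, and 3 and 1 without it. The part of such cells and of handling in the differences from WT IL-2 was not tested.

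Against 3x, genes of the cell cycle were lower with H16R. Of 46 mitotic genes 45 were lower with H16R than with 3x and 0 higher, among them Mki67 (-0.65 ± 0.13) and Ccnb1 (-0.82 ± 0.15). Of 40 replication genes 23 were lower and 0 higher, and Il2ra was lower (-0.71 ± 0.09, adjusted p = 1.92e-05). Of 16 central Treg genes 10 were higher with H16R and 1, S1pr1, lower (-0.18 ± 0.07, adjusted p = 0.0821). Those that were higher included Tcf7 (0.32 ± 0.09), Ccr7 (0.54 ± 0.13) and Klf2 (0.38 ± 0.10), and of 24 TCR complex genes 10 were higher and 0 lower. In the same comparison 4 of 8 Tcon markers, a list that shares 2 genes with the central Treg list, were higher and 1 lower, with sums of 344.7 to 372.4 CPM with H16R against 278.9 to 315.9 CPM with 3x, and 6 of 11 genes of the handling response were higher and 0 lower, with sums of 10620 to 11010 against 7918 to 10070 CPM, all scaled to library totals. The groups did not overlap in either sum, and the part of Tcon cells and of handling in the differences from 3x was not tested. Of 31 effector genes 3 were higher and 8 lower. Gzmb, Il10, Lag3, Icos and Foxp3 did not pass, with 95% intervals of the difference of -0.90 to 0.00, -0.01 to 0.56, -0.15 to 0.64, -0.32 to 0.14 and -0.03 to 0.20.

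Among the largest single differences from 3x, Gpm6b, a membrane glycoprotein, was 1.11 ± 0.22 higher with H16R, Rgs16, a regulator of G protein signaling, 0.77 ± 0.14, Ccl5 0.76 ± 0.19, the gelatinase gene Mmp9 0.75 ± 0.20, and the predicted gene Gm4841 0.93 ± 0.14. Drc1, of the dynein regulatory complex (-1.93), Ggt1, gamma-glutamyl transferase (-1.81), 1500009L16Rik (-1.78), Amotl1, angiomotin-like 1 (-1.73), and Epha3, an ephrin receptor (-1.50), were lower. The last 4 of these had risen against PBS by 3.04, 2.50, 3.57 and 4.24.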

How the data were processed

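Splenic Tregs were sequenced from polyA RNA with a stranded kit. The authors aligned reads with OSA in Omicsoft Array Suite to mouse build GRCm38 and deposited expected counts per gene from RSEM, unscaled, and FPKM values, which are divided by gene length and library size. Deposited DESeq2 comparison columns were not used. Expected counts were rounded, and protein-coding genes above 0.5 CPM in at least 4 of the 32 Treg libraries were kept (12390 of 53345 genes of all biotypes; 29 genes with an empty cell were dropped). edgeR 4.0.16 in R 4.3.3 fitted 8 groups (TMM, quasi-likelihood F-test), with Benjamini-Hochberg adjusted p under 0.1 as the threshold. SEs are the log2 fold change over the root of F, and intervals are 95%. Library totals of 26.73 to 40.41 M expected counts set the precision. The p-values rest on a spread between mice estimated over all 32 Treg libraries, not only over the 8 mice compared. In the labels of the isotype WT IL-2 group, a replicate number occurs more than once.

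Alternatives used DESeq2 1.42.0 and limma 3.58.1 on log2(FPKM + 1), with a pseudocount of 1 that understates changes of low genes. The scripts were tested on simulated data. Named genes were 50 key genes, per list the 3 largest called changes in each direction, the 12 largest rises and falls of all genes, and the 5 largest in each direction in the other contrasts, all above a mean of 5 CPM; markers and genes with a motif were added. The members and gene lists were chosen with earlier results of these data known. Promoters came from RefSeq on GRCm38.p6. A few genes named by this rule are not reported here.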

Additional observations from a re-analysis of the deposited data

Results flagged for a closer look

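Of the 187 genes named above, 69 had a log2 fold change with H16R that differed between MHC II block and the isotype antibody by the interaction test of edgeR, with 54 higher and 15 lower under the block. Over all genes tested 19.1% passed, 55.6% of them higher. Some genes were named for a large difference in this contrast, so the named genes are not a sample of all genes. The values are differences of log2 fold changes, MHC II block minus isotype, over 4 mice in each of 4 groups, and those that lost the call without isotype PBS replicate 1 are named at the end. Among cytotoxic, chemokine and effector genes, the differences were Gzma 4.11, Ccl3 2.51, Gzmb 1.87, Ccl5 1.36, Ccr3 1.29, Lgals3 1.06, Mmp9 0.87, Havcr2 0.82, Ccr2 0.68, Cxcr3 0.59, Cd40lg 0.57, Il10 0.57, Socs2 0.48, Actg1 0.48, Vim 0.47, Irf4 0.42, Ccr8 0.42, Tnfrsf4 0.40, Il2rb 0.31 and Cish 0.24. A positive difference is not a higher level with H16R. Mean CPM with PBS and H16R was 111 and 142 under block against 166 and 160 with isotype for Irf4. It was 34.4 and 60.7 against 51.6 and 68.4 for Ccr8, and 183 and 207 against 233 and 224 for Cish. With H16R, Il10 (250 against 182) and Il2rb (1195 against 1040) were higher under block, and the other genes were not set out in this way. Among cell cycle and metabolic genes, the differences were Cdkn1a 1.02, Hk2 0.78, Pim2 0.64, Rrm2 0.63, Slc16a3 0.63, Chaf1b 0.58, Mcm5 0.57, Manf 0.54, Pdia4 0.52, Sqle 0.48, Slc7a5 0.42, Sesn2 0.33, Ndufa11 0.32, Psme2 0.31, Ldha 0.30, Dnajb11 0.28, Psmd13 0.23 and Cdk4 0.18. Among interferon-induced genes and the other genes of the largest changes, the differences were Ifitm1 2.89, Ggt1 2.33, Ifitm3 1.95, 1500009L16Rik 1.00 and Gbp2 0.48. Among markers of B, myeloid, NK and granulocytic cells, with Scd1, the differences were C1qc 7.94, C1qb 6.42, Csf3r 6.33, Lyz2 4.39, Scd1 4.35, Siglecf 3.86, Pax5 3.52, Ncr1 2.61, Prf1 1.52, Klrb1c 1.14 and Eomes 0.85. The differences below 0 were Car1 -1.96, Pgpep1l -0.91, Actn2 -0.89, Gm14085 -0.87, Ifit1 -0.87, Itgb8 -0.50, Tcf7 -0.46, Isg15 -0.41, Ikzf2 -0.41, Tnfrsf25 -0.35, Lrrc32 -0.35, Ikzf4 -0.32, Cd27 -0.30, Polr1b -0.26 and Foxp3 -0.21. Without isotype PBS replicate 1, the library with the most B cell and MHC class II transcripts of its group, the difference was no longer called for the genes that follow, each with its value without that library: 1500009L16Rik 1.04, C1qb 0.71, C1qc 2.99, Ccr3 1.02, Ccr8 0.42, Cdk4 0.14, Csf3r 5.45, Foxp3 -0.21, Havcr2 0.66, Ikzf2 -0.34, Ikzf4 -0.31, Irf4 0.31, Itgb8 -0.41, Ldha 0.26, Ndufa11 0.23, Pax5 2.16, Psmd13 0.20, Rrm2 0.54 and Sesn2 0.27. That value was not computed for Siglecf.

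In 14 of 374 sets of 4 mice examined for the genes named, 1 library lay far from the other 3 of its group by Dixon's test, which chance alone flags in about 1 of 20 sets. The libraries that stood above their group were Car1 at 11.2 CPM in H16R replicate 3, Ccl3 at 57.2 CPM in H16R replicate 2, Ccnb1 at 32.4 CPM in H16R replicate 3, Csf3r at 1.72 CPM in PBS replicate 3, Ifitm1 at 1.64 CPM in PBS replicate 2, Itgae at 99.8 CPM in PBS replicate 2, Itgae at 259 CPM in H16R replicate 3, Ldhb at 37.5 CPM in H16R replicate 1, Pim2 at 22.1 CPM in PBS replicate 4, Rfc3 at 15.2 CPM in PBS replicate 4 and Scd1 at 7.67 CPM in PBS replicate 3. Those that stood below it were Ccnb1 at 11.3 CPM in PBS replicate 2, E2f2 at 48.8 CPM in PBS replicate 3 and Epha3 at 0.0315 CPM in PBS replicate 2.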

How the results depend on the processing

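The number of genes called for H16R against PBS under MHC II block, 8242, lay between 7680 and 9145 under other scalings (none, RLE), DESeq2, no filter on low counts, all biotypes, fits to fewer groups, counts thinned to the smallest library and limma on log2(FPKM + 1), and between 7635 and 8229 without 1 library. When a change of at least 1 on the log2 scale was also asked for, the count was 961 for this comparison (476 higher, 485 lower), 488 for the interaction (447 and 41), 760 against WT IL-2 (140 and 620) and 71 against 3x (13 and 58). At an adjusted p under 0.05 the interaction count was 1379. Without 1 library the interaction count ranged from 1488 to 3593, the count against WT IL-2 from 6016 to 7393 and the count against 3x from 1975 to 3678; the causes were not tested. Of 188 genes named by the rule, 167 kept their direction and their side of the threshold in all alternatives other than the 2 stricter thresholds, which were applied to counts alone; the fit to the libraries of the contrast gave a value for 184 of the 188. Those that changed sign were not called: Mcm5 (0.012 without the filter, 0.033 with all biotypes, and -0.054 to 0.036 without 1 library), Irf7 (0.006 with all biotypes, and -0.101 to 0.093 without 1 library), Lyz2 (-0.086 to 1.002 without 1 library), Scd1 (-0.479 to 0.291), Vcam1 (-0.259 to 0.426) and Csf3r (-1.794 to 0.958). A further 11 lost their call in at least 1 alternative, all with small changes (Nr4a1, Ikzf2, Relb, Rela, Mcl1, Arhgef7, Cdk4, Sdha, Pmaip1, Rfc3 and Ndufa5), and others, among them Cd69, Pax5 and C1qc, gained one. Of 46 counts of list members that rose or fell, 0 to 8 moved by over 1.5 times under the other models, scalings and filters (8 with all biotypes, 6 without the filter, 4 without TMM and 4 with limma on FPKM), 1 to 4 without 1 library, 3 at an adjusted p under 0.05 and 41 at a change of at least 1. Those that moved without 1 library were chaperones that rose (8 instead of 5) and genes that fell in the replication (2 instead of 4), Bcl2 (1 instead of 3), TCR complex and cyclin (2 instead of 1), and effector, oxidative phosphorylation and cytoskeletal lists (1 instead of 2). With all biotypes tested, 17 instead of 11 replication genes rose and 5 instead of 9 NF-kB genes fell. Without TMM the median over all genes was -0.078 instead of -0.02, and the replication genes that fell were 7 instead of 4.

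Mice with the same replicate number in the PBS and H16R groups deviated from their group means with correlations of 0.12, -0.07, 0.4 and 0.02, and only number 3 matched its own number best, so the numbers were not taken as pairs. With the replicate number as a block, 8267 genes passed for H16R against PBS, 2378 for the interaction, 7080 against WT IL-2 and 3125 against 3x.

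At the depth of these libraries 1 CPM stood for at least 26.73 counts, so that genes below it, among them Fcer1a, Ms4a2, Epx and Tpsb2, rest on few reads, and differences there were not detectable unless large.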
